A study of Mus musculus with 15 samples.

Results

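The 10 genes described here encode transcription factors of the dendritic cell (DC) lineages: Irf8, Batf3, Id2, Nfil3, Irf4, Klf4, Zeb1, Zeb2, Tcf4 and Zbtb46. They were chosen by symbol and matched to the Ensembl identifiers of the count and TPM files, which hold 38924 genes, and all 10 were counted and passed the filter on low counts. RNA-seq libraries were made from mononuclear phagocytes (MPs) sorted from spleen and from the lymph nodes (LNs) that drain the lung, with 3 libraries for each of 5 subtypes (15 in all). Splenic CD8+ DCs and LN CD103+ DCs are the DC1 subtypes, splenic CD4+ DCs and LN CD11b+ DCs are the DC2 subtypes, and splenic Ly6C+ monocytes are the only non-DC subtype. Every library came from naïve, unmanipulated wild-type female C57BL/6 mice, given as 6 to 8 weeks of age by the labels, with cells of 5 mice pooled per library. LNs and spleens came from different cohorts, and the gate for LN DCs, unlike that for splenic DCs, asked for high MHC class II, so organ cannot be told apart from cohort and gate. In sorted bulk RNA, fewer cells of a type and less RNA per cell cannot be told apart.

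Conventional DCs fall into a DC1 lineage, known for presenting antigen to CD8+ T cells, and a DC2 lineage, known for priming CD4+ T cells. IRF8 and BATF3 specify and maintain DC1, NFIL3 and ID2 act on the path to DC1, and IRF4 and KLF4 serve the development and function of DC2. ZEB1 and ZEB2 are related repressors that bind E-box motifs, TCF4 is the E protein of plasmacytoid DCs whose activity ID2 blocks, and ZBTB46 is a zinc finger factor that marks conventional DCs among myeloid cells.

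Promoters are shown for the 2 genes with the largest differences between the lineages, Irf8 and Zeb2, and for Batf3 and Id2, whose levels moved most closely together among the DC1-associated genes. Promoter rows of RefSeq (build GRCm38.p6, the assembly of mm10) were matched for 8 of the 10 genes, and for 7 of them the RefSeq start lay within 100 bases of the start of the counted gene. Each line gives the 250 bases before the start, 5′ to 3′ on the strand of the gene, and capitals mark matches on either strand to the E-box CANNTG, the IRF motif (GAAA, any 2 bases, GAAA), the ETS-IRF motif (GGAA, any 2 bases, GAAA), the AP-1 motif TGANTCA or the STAT-type GAS motif TTCNNNGAA.
Irf8 promoter, chr8:120736108-120736357, + strand: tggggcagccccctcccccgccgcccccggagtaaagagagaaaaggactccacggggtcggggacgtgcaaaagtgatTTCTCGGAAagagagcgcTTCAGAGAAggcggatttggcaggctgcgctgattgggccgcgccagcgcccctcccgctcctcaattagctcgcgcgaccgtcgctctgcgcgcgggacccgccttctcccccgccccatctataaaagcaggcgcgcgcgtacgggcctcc
Zeb2 promoter, chr2:45117443-45117692, - strand: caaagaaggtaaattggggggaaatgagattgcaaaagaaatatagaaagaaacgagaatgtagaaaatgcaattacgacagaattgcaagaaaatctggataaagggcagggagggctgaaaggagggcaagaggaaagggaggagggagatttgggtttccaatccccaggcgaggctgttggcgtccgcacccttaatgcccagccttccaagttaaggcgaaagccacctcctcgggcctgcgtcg
Batf3 promoter, chr1:191098164-191098413, + strand: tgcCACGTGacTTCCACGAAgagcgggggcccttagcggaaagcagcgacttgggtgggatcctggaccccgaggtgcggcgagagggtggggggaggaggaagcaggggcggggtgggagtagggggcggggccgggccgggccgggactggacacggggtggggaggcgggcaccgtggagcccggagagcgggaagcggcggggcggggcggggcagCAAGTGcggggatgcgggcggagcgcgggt
Id2 promoter, chr12:25096093-25096342, - strand: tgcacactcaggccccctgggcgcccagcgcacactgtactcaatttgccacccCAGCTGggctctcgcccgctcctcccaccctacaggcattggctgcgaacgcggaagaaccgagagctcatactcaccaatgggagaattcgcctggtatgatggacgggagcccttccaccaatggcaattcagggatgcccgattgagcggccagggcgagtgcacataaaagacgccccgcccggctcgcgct
The Irf8 window holds 2 GAS matches, Batf3 holds 1 GAS and 2 E-box matches, Id2 holds 1 E-box match, and Zeb2 holds none of the 5 motifs. An E-box was found in 66.2% of the 32851 promoter windows of the same length and a GAS match in 7.02%, while the IRF motif was found in 2.98%, the ETS-IRF motif in 2.30% and the AP-1 motif in 6.75%. These matches describe letters in a window and do not locate a bound factor. The GAS motif was added after the Irf8 sequence had been seen.

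The libraries held 4531243 to 10233914 counts assigned to genes, and the smallest count of any of the 10 genes was 22, for Zeb1 in a monocyte library. Levels are given as CPM, read counts scaled to library size with TMM factors, as mean ± SD over the 3 libraries, with libraries in the order of their replicate number. Differences are log2 fold changes ± SE from an edgeR quasi-likelihood model of all 15 libraries, with p values adjusted by Benjamini-Hochberg over the 14456 genes tested and a threshold of 0.05. The replicates are pools of mice, and the p values measure the spread between these pools. Of the sort markers, Ly6c2 (825 ± 167 CPM) was high in monocytes, Cd4 (145 ± 51.0 CPM) in splenic CD4+ DCs and Cd8a (441 ± 161 CPM) in splenic CD8+ DCs. Itgae, which encodes CD103, was lower in LN CD103+ DCs (27.2 ± 10.8 CPM) than in splenic CD8+ DCs (107 ± 32.0 CPM), although it exceeded the 4.25 ± 2.38 CPM of LN CD11b+ DCs. H2-Ab1, an MHC class II gene, was lower in LN, where the gate asked for high MHC class II. It was at 1766 ± 1248 CPM in LN CD103+ and 7374 ± 2434 CPM in LN CD11b+ DCs. Splenic CD8+ and CD4+ DCs held 19140 ± 1938 and 15900 ± 4596 CPM. Itgam, which encodes CD11b, was at 1099 ± 69.3 CPM in monocytes and 347 ± 84.6 CPM in splenic CD4+ DCs. In LN it was lower in CD103+ than in CD11b+ DCs, and LN CD11b+ DCs held less of it than splenic CD4+ DCs, past the threshold.

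All 10 genes differed over the 5 subtypes, against 73.5% of the genes tested. The ratio of the highest to the lowest subtype mean ran from 2.30 for Tcf4 through 3.64 for Batf3, 5.61 for Irf4, 5.89 for Klf4, 15.9 for Id2, 22.04 for Nfil3, 36.01 for Zeb2, 44.5 for Zeb1 and 47.9 for Irf8 to 64.6 for Zbtb46. Monocytes held the lowest mean for 4 genes (Batf3, Id2, Zeb1 and Zbtb46) and the highest for 3 (Nfil3, Klf4 and Zeb2). When the subtypes of each gene were ordered by mean CPM, 20 of the 40 steps between neighbours passed the threshold. Per length, Id2 was the most abundant of the 10 in every DC subtype, with 666 ± 249 TPM in splenic CD4+ DCs and 3033 ± 635 TPM in LN CD103+ DCs, and Nfil3 was the most abundant in monocytes (279 ± 54.2 TPM). The least abundant per length was Zeb2 in both DC1 subtypes (4.74 ± 3.05 TPM in spleen and 1.95 ± 0.102 TPM in LN), Nfil3 in splenic CD4+ DCs (12.1 ± 1.73 TPM), Tcf4 in LN CD11b+ DCs (16.5 ± 4.24 TPM) and Zeb1 in monocytes (0.889 ± 0.223 TPM).

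**Figure D1:**
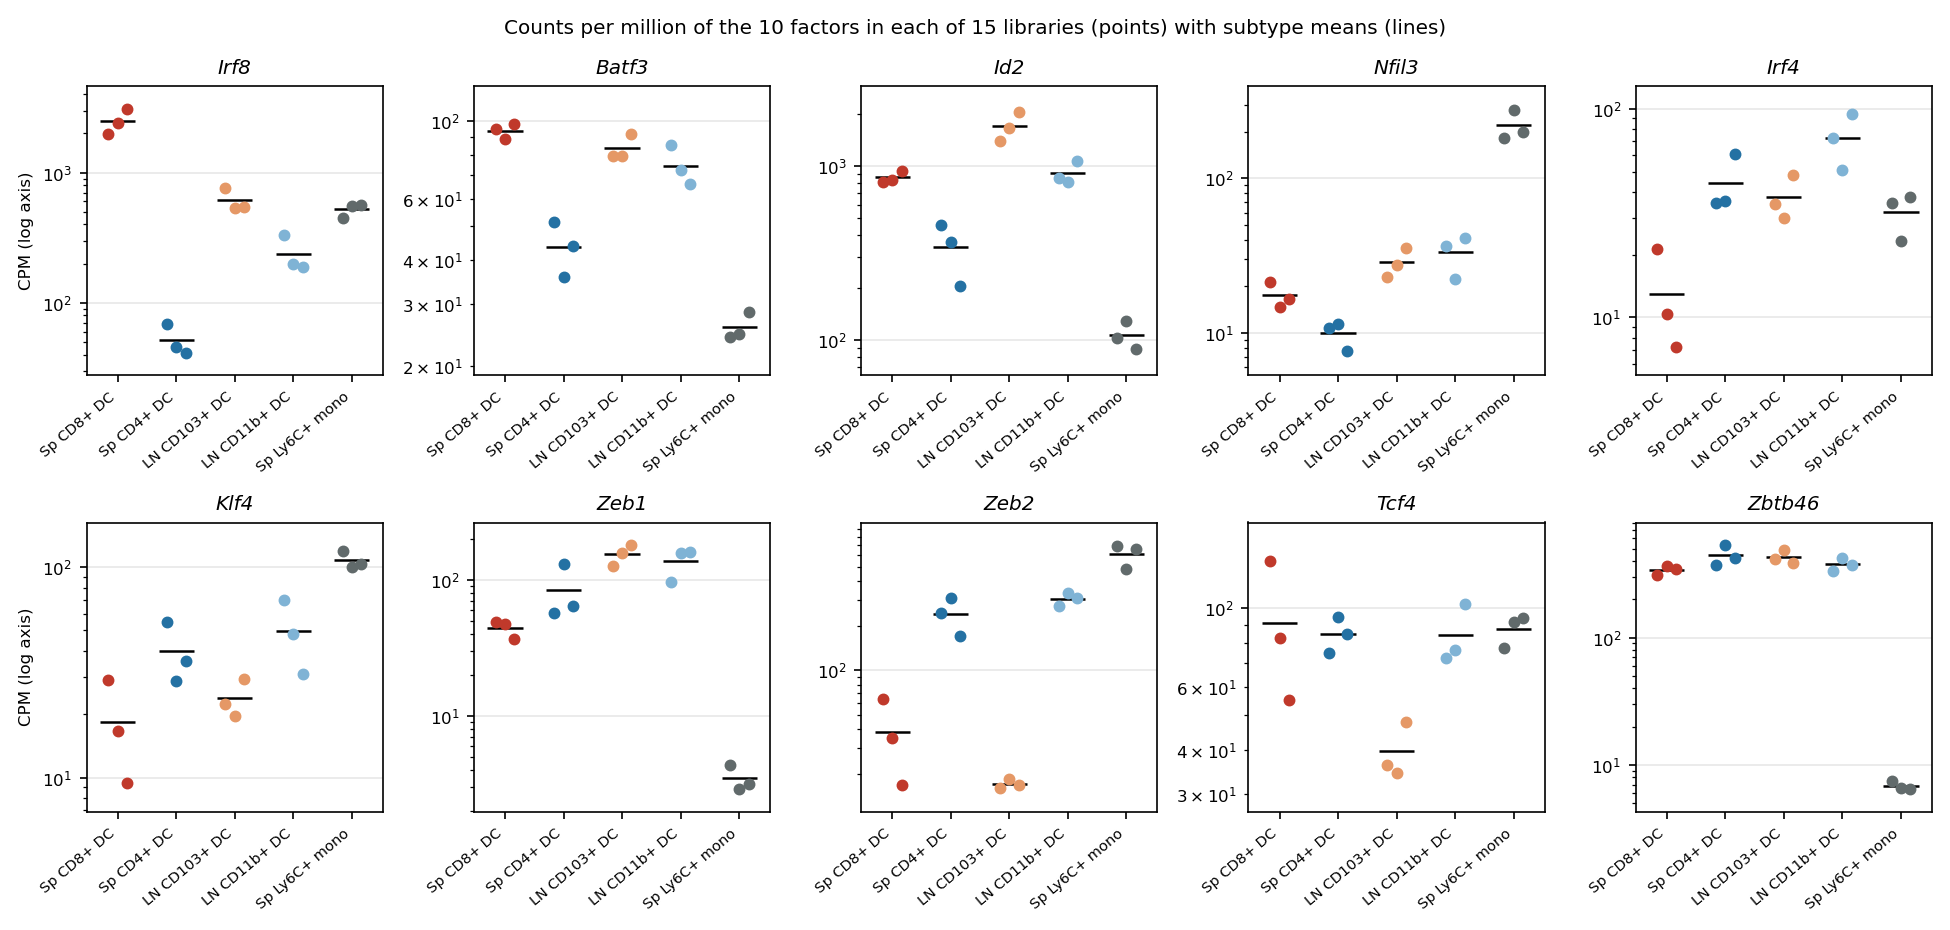
Levels of the 10 factors in each library, as CPM on a log axis, for the 5 subtypes on the x axis; points are libraries and lines are the means of 3. Irf8 spans 41.5 to 3108 CPM, Zeb2 falls to 16.05 to 18.3 CPM in LN CD103+ DCs, and Zbtb46 separates all 12 DC libraries from the 3 monocyte libraries.

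Irf8 encodes the interferon regulatory factor on which DC1 depend most (ENSMUSG00000041515, chr8:120736358-120756694). It was measured at 1963, 2385 and 3108 CPM in splenic CD8+ DCs, at 765, 534 and 540 CPM in CD103+ DCs of the LN, and at 452, 552 and 563 CPM in monocytes. The DC2 subtypes held less, at 331, 198 and 188 CPM for LN CD11b+ DCs and 68.4, 45.7 and 41.5 CPM in splenic CD4+ DCs. Both DC1 subtypes lay above the DC2 subtype of their organ in every library, and only LN CD103+ DCs and monocytes overlapped. LN CD103+ DCs were below splenic CD8+ DCs by 2.02 on the log2 scale (-2.02 ± 0.27, adjusted p = 5.11e-06), whereas LN CD11b+ DCs were above splenic CD4+ DCs by 2.20 ± 0.27 (adjusted p = 4.64e-06). The difference between lineages was therefore 5.58 ± 0.31 in spleen (adjusted p = 9.37e-10) and 1.36 ± 0.26 in LN (adjusted p = 0.00148), and the interaction of lineage with organ was -4.22 ± 0.38 (adjusted p = 1.15e-06). LN CD103+ DCs and monocytes did not differ past the threshold (0.23 ± 0.26, 95% interval -0.30 to 0.77, adjusted p = 0.465). LN CD103+ replicate 1, with the highest Irf8 of its subtype (765 CPM), also held the highest sum of 7 B cell markers, 251 against 16.5 and 28.5 CPM. Its sum of 6 DC1 markers was the highest as well, 312 against 202 and 211 CPM. The part of B cell RNA in its Irf8 level was not tested. Without this library the difference from splenic CD8+ DCs was -2.21 (adjusted p = 1.32e-05).

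Batf3 encodes the AP-1 factor that pairs with JUN and supports IRF8 in DC1 (ENSMUSG00000026630, chr1:191098414-191108943). Splenic CD8+ DCs held 94.8, 88.9 and 97.8 CPM, LN CD103+ DCs 79.5, 79.6 and 91.8 CPM and LN CD11b+ DCs 85.3, 72.3 and 65.9 CPM. Splenic CD4+ DCs held 51.3, 35.8 and 43.9 CPM and monocytes 24.2, 24.7 and 28.5 CPM. LN CD11b+ DCs overlapped LN CD103+ DCs through 1 library, and splenic CD4+ DCs and monocytes lay below these 3 subtypes without overlap. In spleen the lineages differed by 1.10 ± 0.18 (adjusted p = 0.000194), while in LN they differed by 0.16 ± 0.18 (95% interval -0.21 to 0.54, adjusted p = 0.636). LN CD11b+ DCs exceeded splenic CD4+ DCs by 0.77 ± 0.18 (adjusted p = 0.00302), LN CD103+ and splenic CD8+ DCs differed by -0.17 ± 0.18 (95% interval -0.54 to 0.21, adjusted p = 0.476), and the interaction was -0.94 ± 0.26 (adjusted p = 0.0225). That interaction was lost without LN CD103+ replicate 2 (-0.90, adjusted p = 0.0629) and without LN CD11b+ replicate 1 (-0.83, adjusted p = 0.0690), and in the fit with no filter on low counts (adjusted p = 0.067).

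Id2 encodes the inhibitor that binds E proteins and keeps them from DNA (ENSMUSG00000020644, chr12:25093801-25096092). Its levels were 1399, 1658 and 2050 CPM for LN CD103+, 853, 808 and 1068 CPM for LN CD11b+ and 814, 830 and 938 CPM in splenic CD8+ DCs. Splenic CD4+ DCs held 460, 366 and 204 CPM and monocytes 104, 130 and 88.7 CPM. LN CD103+ DCs stood above all other libraries, LN CD11b+ and splenic CD8+ DCs overlapped (0.08 ± 0.25, 95% interval -0.44 to 0.60, adjusted p = 0.832), and monocytes were the lowest. Id2 was higher in LN than in spleen in DC1 (0.98 ± 0.25, adjusted p = 0.00358) and in DC2 (1.41 ± 0.26, adjusted p = 0.000290), and higher in DC1 than in DC2 in spleen (1.33 ± 0.25, adjusted p = 0.000736) and in LN (0.90 ± 0.25, adjusted p = 0.0220). The LN lineage call was lost when any of 4 LN libraries was left out (LN CD103+ replicate 2 or 3, LN CD11b+ replicate 1 or 2), with adjusted p up to 0.106 and a log2 fold change of at least 0.75. Over the 15 libraries, the log2 CPM of Id2 followed that of Batf3 (Pearson r = 0.92) and of Zeb1 (r = 0.85), a description of libraries that share subtypes.

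Nfil3 encodes a bZIP factor that acts early on the path to DC1 (ENSMUSG00000056749, chr13:52967209-52981073). Monocytes held 183, 276 and 200 CPM, and no DC library exceeded 41.3 CPM. The LN libraries measured 36.2, 22.3 and 41.3 CPM (CD11b+) and 23.03, 27.6 and 35.5 CPM (CD103+), and the splenic ones 21.3, 14.7 and 16.5 CPM (CD8+) and 10.8, 11.4 and 7.66 CPM (CD4+). The level thus fell without overlap from monocytes to LN DCs, to splenic CD8+ DCs and to splenic CD4+ DCs, with the LN subtypes overlapping each other. LN exceeded spleen by 1.73 ± 0.27 in DC2 (adjusted p = 6.48e-05) and by 0.71 ± 0.26 in DC1 (adjusted p = 0.0307), and DC1 exceeded DC2 by 0.81 ± 0.27 in spleen (adjusted p = 0.0323). The DC1 organ call was lost without any of splenic CD8+ replicate 2 or 3 and LN CD103+ replicate 2 or 3 (adjusted p 0.0555 to 0.141), and the splenic lineage call without splenic CD8+ replicate 1 or 3 or splenic CD4+ replicate 3 (adjusted p 0.0558 to 0.127). The gene had 46 to 337 counts per DC library.

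Tcf4, also called E2-2, was the least variable of the 10 (ENSMUSG00000053477, chr18:69344146-69687967). It stood at 36.3, 34.4 and 47.9 CPM in LN CD103+ DCs, and at 72.4, 76.2 and 103 CPM in their CD11b+ counterparts, 75.02, 94.4 and 84.4 CPM in splenic CD4+ DCs and 77.3, 91.5 and 93.8 CPM in monocytes. Splenic CD8+ DCs spread from 136 and 82.3 to 55.2 CPM. LN CD103+ DCs were below the libraries of each of the 4 other subtypes, which overlapped one another. The difference of LN CD103+ DCs was -1.08 ± 0.26 from LN CD11b+ DCs (adjusted p = 0.00915, and 0.0548 without LN CD103+ replicate 2) and -1.21 ± 0.26 from splenic CD8+ DCs (adjusted p = 0.00100). In spleen the lineages differed by 0.11 ± 0.26 (95% interval -0.43 to 0.65, adjusted p = 0.802), a sign that turned to -0.30 without splenic CD8+ replicate 1. The interaction of -1.19 ± 0.37 (adjusted p = 0.0430) passed the threshold in 3 of the 15 fits with 1 library left out, and with RLE scaling its adjusted p was 0.0562. The 8 plasmacytoid DC markers summed to 142, 130 and 105 CPM in the same splenic CD8+ libraries. Within that list Siglech was at 35.5, 13.5 and 3.89 CPM, in the order of Tcf4, Ccr9 at 50.6, 74.6 and 62.8 CPM and Pacsin1 at 4.30, 2.43 and 11.8 CPM, not in that order, and Klk1 and Cox6a2 were under 1 CPM; their part in the result was not tested.

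Irf4 encodes the interferon regulatory factor needed for DC2 function and migration (ENSMUSG00000021356, chr13:30749226-30766927). LN CD11b+ DCs held 72.7, 51.2 and 94.4 CPM, with 35.3, 35.97 and 60.4 CPM in splenic CD4+ DCs, and 34.9, 29.8 and 48.2 CPM in LN CD103+ DCs. Monocytes held 35.2, 23.2 and 37.8 CPM and splenic CD8+ DCs 21.3, 10.4 and 7.21 CPM. The 4 other subtypes lay above splenic CD8+ DCs in every library, and splenic CD4+ DCs, LN CD103+ DCs and monocytes overlapped. DC1 were lower than DC2 in spleen (-1.76 ± 0.36, adjusted p = 0.00121), and LN CD103+ DCs were higher than splenic CD8+ DCs (1.53 ± 0.36, adjusted p = 0.00166). In LN the lineages differed by -0.95 ± 0.34 without overlap, which missed the threshold (adjusted p = 0.0774) and passed it with a replicate block (-0.93, adjusted p = 0.0326) and without splenic CD8+ replicate 1 or 3 (adjusted p = 0.0366 and 0.0488). LN CD11b+ and splenic CD4+ DCs differed by 0.73 ± 0.34 (adjusted p = 0.113), and by 0.71 with a replicate block fitted to these subtypes alone (adjusted p = 0.0133) and 1.03 without splenic CD4+ replicate 3 (adjusted p = 0.0411).

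Klf4 encodes a zinc finger factor of monocytes and of DC2 (ENSMUSG00000003032, chr4:55527143-55532466). Monocytes held 120, 99.9 and 104 CPM, LN CD11b+ DCs 69.5, 47.9 and 31.2 CPM and splenic CD4+ DCs 54.7, 28.8 and 35.96 CPM. The DC1 subtypes held 22.3, 19.5 and 29.5 CPM in LN and 28.9, 16.6 and 9.39 CPM in spleen. Monocytes were above all DC libraries, while splenic CD4+ and CD8+ DCs overlapped by a narrow margin. DC1 were lower than DC2 in spleen (-1.12 ± 0.35, adjusted p = 0.0220) and in LN (-1.07 ± 0.35, adjusted p = 0.0487), and neither lineage differed past the threshold between organs (DC1 0.37 ± 0.35, DC2 0.32 ± 0.34). Both lineage calls rested on few libraries: the LN call was lost without any LN CD103+ library, LN CD11b+ replicate 1 or 2, or any monocyte library (adjusted p up to 0.231), and the splenic call was lost without splenic CD8+ replicate 2 or 3 or splenic CD4+ replicate 1 (adjusted p up to 0.110).

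Zeb2 encodes the repressor that favours plasmacytoid and monocyte fates over DC1 (ENSMUSG00000026872, chr2:44983634-45117395). It was at 689, 484 and 665 CPM in monocytes, at 271, 333 and 306 CPM for LN CD11b+ DCs and at 242, 308 and 171 CPM in splenic CD4+ DCs. The DC1 subtypes held 63.6, 34.8 and 16.8 CPM in spleen and 16.05, 18.3 and 16.7 CPM in LN. Every DC2 and monocyte library was above every DC1 library, and only splenic CD8+ replicate 3 fell within the range of LN CD103+ DCs. DC1 were lower than DC2 by a log2 fold change of -2.64 ± 0.34 in spleen (6.25-fold, adjusted p = 1.23e-05) and -4.15 ± 0.37 in LN (17.8-fold, adjusted p = 4.00e-07). LN CD103+ DCs were below splenic CD8+ DCs (-1.17 ± 0.34, adjusted p = 0.00819), a call lost without splenic CD8+ replicate 1 (-0.60, adjusted p = 0.117). The interaction of -1.51 ± 0.46 (adjusted p = 0.0418) was lost without that library too (-0.93, adjusted p = 0.144) and held in 3 of the 15 fits with 1 library left out. Zeb2 shares 2.36% of its exon length with Mir5129 and the antisense gene Zeb2os, and the counting used no strand.

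Zeb1, the paralogue of Zeb2, was lowest in monocytes, where Zeb2 was highest (ENSMUSG00000024238, chr18:5591860-5775467). LN CD103+ DCs held 127, 156 and 179 CPM, the CD11b+ ones 97.1, 157 and 160 CPM and splenic CD4+ DCs 57.2, 131 and 64.3 CPM. Splenic CD8+ DCs held 48.8, 47.4 and 37.0 CPM and monocytes 4.33, 2.92 and 3.16 CPM. The LN subtypes overlapped, splenic CD8+ DCs were below all other DC libraries, and monocytes were below them all. Zeb1 was higher in LN than in spleen in DC1 (1.80 ± 0.28, adjusted p = 4.30e-05), and in DC2 the difference of 0.72 ± 0.28 missed the threshold (adjusted p = 0.0545) but passed it with a replicate block (0.75, adjusted p = 0.0247), without splenic CD4+ replicate 2 (1.18, adjusted p = 0.00128) and without LN CD11b+ replicate 1 (0.92, adjusted p = 0.0241). In LN the lineages differed by 0.16 ± 0.27 (95% interval -0.42 to 0.73, adjusted p = 0.787). In spleen DC1 were lower (-0.92 ± 0.28, adjusted p = 0.0199), a call lost without splenic CD4+ replicate 2, the high library of its group (-0.45, adjusted p = 0.194), and without splenic CD8+ replicate 3 (-0.80, adjusted p = 0.0853). Zeb1 shares 1.96% of its exon length with Gm10125, on the other strand, which held 208 counts over all libraries.

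Zbtb46 separated DCs from monocytes and had similar levels across DCs (ENSMUSG00000027583, chr2:181387762-181459426). The 12 DC libraries ranged from 310 to 535 CPM, with means of 442 ± 84.5 CPM in splenic CD4+, 428 ± 52.8 CPM in LN CD103+, 376 ± 44.0 CPM in LN CD11b+ and 339 ± 27.0 CPM in splenic CD8+ DCs. Monocytes held 7.47, 6.61 and 6.45 CPM. No DC library came near the monocyte range. The widest gap between neighbours in order among the DC subtypes was 0.19 ± 0.18 (95% interval -0.19 to 0.57, adjusted p = 0.578), and the gap between monocytes and splenic CD4+ DCs was -6.02 ± 0.23 (64.6-fold, adjusted p = 2.69e-12). None of the 4 lineage and organ comparisons passed the threshold for Zbtb46, although in spleen the CD4+ libraries all exceeded the CD8+ ones (DC1 minus DC2 -0.38 ± 0.18, adjusted p = 0.125). That difference passed the threshold with limma on log2(TPM + 1) (-0.41, adjusted p = 0.0492). LN CD103+ libraries also all exceeded the splenic CD8+ ones (0.34 ± 0.18, adjusted p = 0.141).

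The lineage comparison asks which factors tell DC1 from DC2 in each organ. In spleen 8 of the 10 genes differed, against 27.4% of the genes tested. Irf8, Batf3, Id2 and Nfil3 were higher in DC1, and Irf4, Klf4, Zeb1 and Zeb2 were higher in DC2. Over all 10 genes the median absolute log2 fold change was 1.11, beside 0.57 over all genes tested. In LN 5 of the 10 differed, against 12.9% of the genes tested, with Irf8 and Id2 higher in DC1 and Klf4, Zeb2 and Tcf4 higher in DC2. There the median absolute log2 fold change of all 10 was 0.93, beside 0.40 over all genes. The splenic count was 5 with splenic CD8+ replicate 3 left out. It was 5 in a fit of the 2 subtypes alone and 8 in that fit with a replicate block. The LN count ran from 2 (without LN CD103+ replicate 2) to 6.

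**Figure D2:**
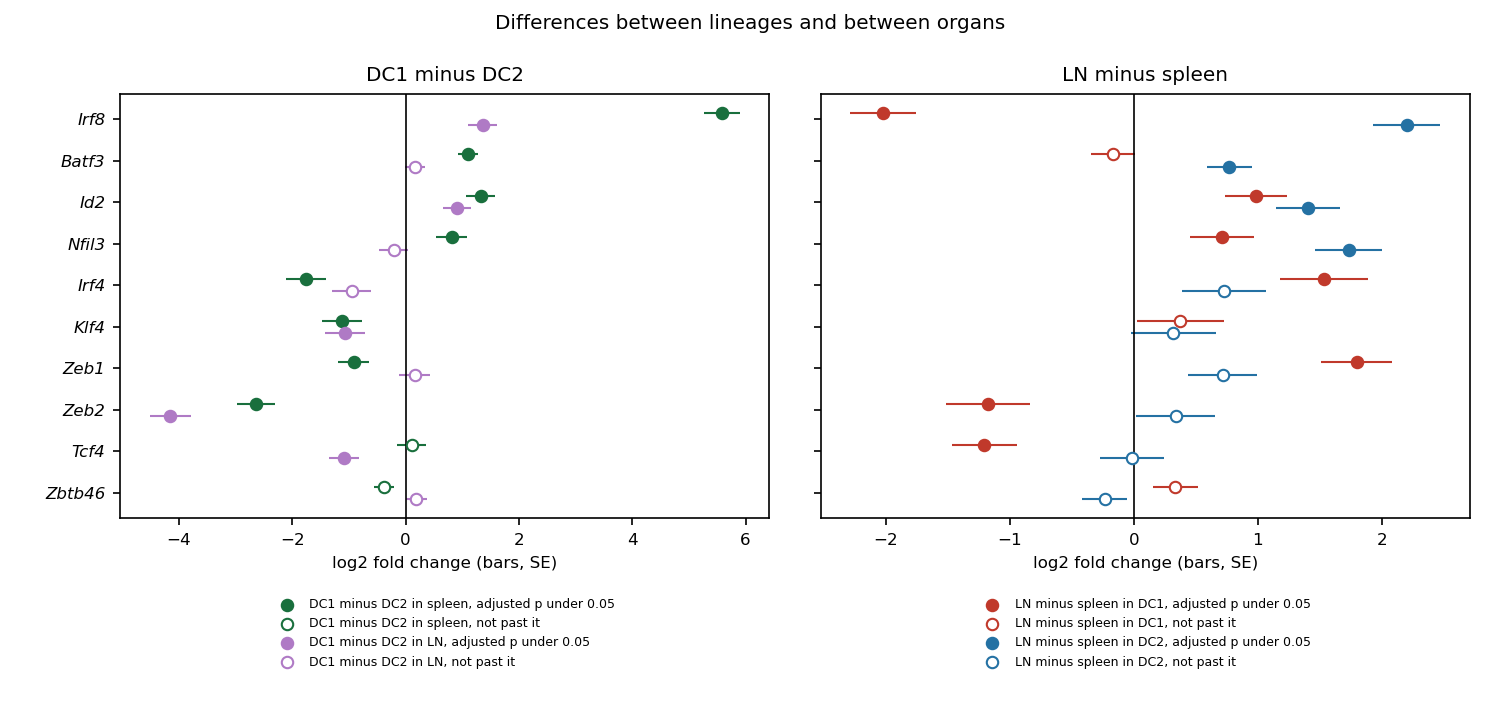
Log2 fold changes (x axis) of the 10 factors (y axis) between lineages on the left and between organs on the right; bars are SE, filled points passed an adjusted p of 0.05 and open points did not. Irf8 and Zeb2 lie farthest from 0 between lineages, and Irf8 moved in opposite directions between organs in DC1 (-2.02) and DC2 (2.20).

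Between organs, 7 of the 10 genes differed in DC1, against 45.6% of the genes tested, and 4 differed in DC2, against 33.1%. In DC1 the LN cells were higher in Id2, Nfil3, Irf4 and Zeb1 and lower in Irf8, Zeb2 and Tcf4. In DC2 the 4 genes, Irf8, Batf3, Id2 and Nfil3, were all higher in LN. Irf4 (0.73) and Zeb1 (0.72) had differences close to that of Batf3 (0.77) without passing the threshold, and both passed it with no filter on low counts and with a replicate block fitted to these subtypes alone, where the count was 6. The median absolute log2 fold change of all 10 was 1.08 in DC1 and 0.72 in DC2, beside 0.81 and 0.60 over all genes. The organ effect differed between the lineages for 4 of the 10 genes (Irf8, Batf3, Zeb2 and Tcf4, all with a negative interaction), against 11.2% of the genes tested, a count that fell to 1 without LN CD103+ replicate 2 and without LN CD11b+ replicate 1. T cell markers, 7 genes of which Lck and Tcf7 were the most abundant, summed to 170 to 247 CPM in the LN DC libraries and 2.97 to 48.8 CPM in the splenic ones; several of the 10 factors are used by T cells, and the part of such RNA in the organ differences was not tested.

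Monocytes were compared with each DC subtype, and these 4 comparisons share the 3 monocyte libraries. The counts by run list separate runs for the monocyte libraries only. Monocytes were enriched with CD11b beads and DCs with CD11c beads before sorting. Cell type cannot be told apart from these steps. Against splenic CD8+ DCs 9 of the 10 genes differed (42.1% of the genes tested), against splenic CD4+ DCs 8 (48% of the genes tested), against LN CD103+ DCs 8 (53.2% of the genes tested) and against LN CD11b+ DCs 9 (47.8% of the genes tested). Nfil3, Klf4 and Zeb2 were higher in monocytes in all 4 comparisons and Batf3, Id2, Zeb1 and Zbtb46 were lower in all 4. Nfil3 exceeded the DC subtypes by 6.60-fold (LN CD11b+) to 22.04-fold (splenic CD4+), and Zeb1 was 12.8-fold (splenic CD8+) to 44.5-fold (LN CD103+) lower. Irf8 was 4.76-fold lower in monocytes than in splenic CD8+ DCs, 2.18-fold higher than in LN CD11b+ DCs and 10.1-fold higher than in splenic CD4+ DCs. Irf4 was higher in monocytes than in splenic CD8+ DCs (1.30 ± 0.36, adjusted p = 0.00621) and lower than in LN CD11b+ DCs (-1.18 ± 0.34, adjusted p = 0.00832). Of the calls against LN CD11b+ DCs, that of Irf4 was lost without monocyte replicate 2 (adjusted p = 0.0508), that of Zeb2 without LN CD11b+ replicate 1 (adjusted p = 0.0509) and that of Klf4 without LN CD11b+ replicate 3 (adjusted p = 0.0568). The monocyte libraries also held 214 to 338 CPM summed over 8 neutrophil markers, 2 of which (S100a8 and S100a9) are monocyte genes too, against at most 2.16 CPM in any DC library. Within that list S100a8 averaged 41.9 ± 9.76 CPM, S100a9 37.9 ± 9.13 CPM and Camp 25.35 ± 9.73 CPM in monocytes, while Ly6g averaged 0.2 CPM. These named genes account for only part of the sum, and the other markers of the list hold the rest. The part of neutrophil RNA in these libraries was not tested.

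The balance of paired factors within a library was taken as the log2 ratio of TPM + 1, per length. The exact permutation tests set 6 libraries against 6 and moved labels freely among the DC subtypes, without regard to subtype. Each side joined subtypes, so the p values treat libraries of the same subtype as separate units. The smallest exact permutation p that 6 against 6 can give is 0.00216. The ratio of Irf8 to Irf4 was 5.82, 7.01 and 7.82 in splenic CD8+ DCs, 3.796, 3.49 and 2.85 in LN CD103+ DCs, 1.58, 1.34 and 0.40 in LN CD11b+ DCs and 0.36, -0.22 and -1.08 in splenic CD4+ DCs. All 6 DC1 libraries were above all 6 DC2 libraries (difference of means 4.74, 2-sided exact permutation p = 0.00216, adjusted p over 6 tests = 0.00649), and between organs the ratio was lower in LN in DC1 and higher in LN in DC2, each without overlap. The test of 6 LN against 6 splenic libraries (-1.04, exact permutation p = 0.552) averages these opposite directions and does not speak to either. Monocytes averaged 3.39 ± 0.44, beside 3.38 ± 0.48 in LN CD103+ DCs. Zeb1 to Zeb2 also set all DC1 libraries (0.52 to 3.82) above all DC2 libraries (-1.07 to 0.02). The difference was 2.75 (exact permutation p = 0.00216, adjusted p = 0.00649), and the ratio averaged -5.42 ± 0.21 in monocytes. Between LN and splenic DCs the Zeb1 to Zeb2 ratio differed by 1.41, which did not pass the threshold (exact permutation p = 0.162, adjusted p = 0.195). Id2 to Tcf4 averaged 8.51 ± 0.16 in LN CD103+, 6.63 ± 0.09 in LN CD11b+, 6.52 ± 0.71 in splenic CD8+ and 5.14 ± 0.66 in splenic CD4+ DCs, with 3.48 ± 0.31 in monocytes. It was higher in LN than in splenic DCs by 1.74 (exact permutation p = 0.0152, adjusted p = 0.0303), a call that was lost when any of 6 single libraries was left out (each splenic CD4+ and each LN CD103+ library, adjusted p = 0.0606). Between DC1 and DC2 it differed by 1.63 (exact permutation p = 0.0368, adjusted p = 0.0552), and this passed the threshold without splenic CD8+ replicate 1 (adjusted p = 0.0346) or replicate 2 (adjusted p = 0.0455). The ratios in monocytes are given without a test.

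**Figure D3:**
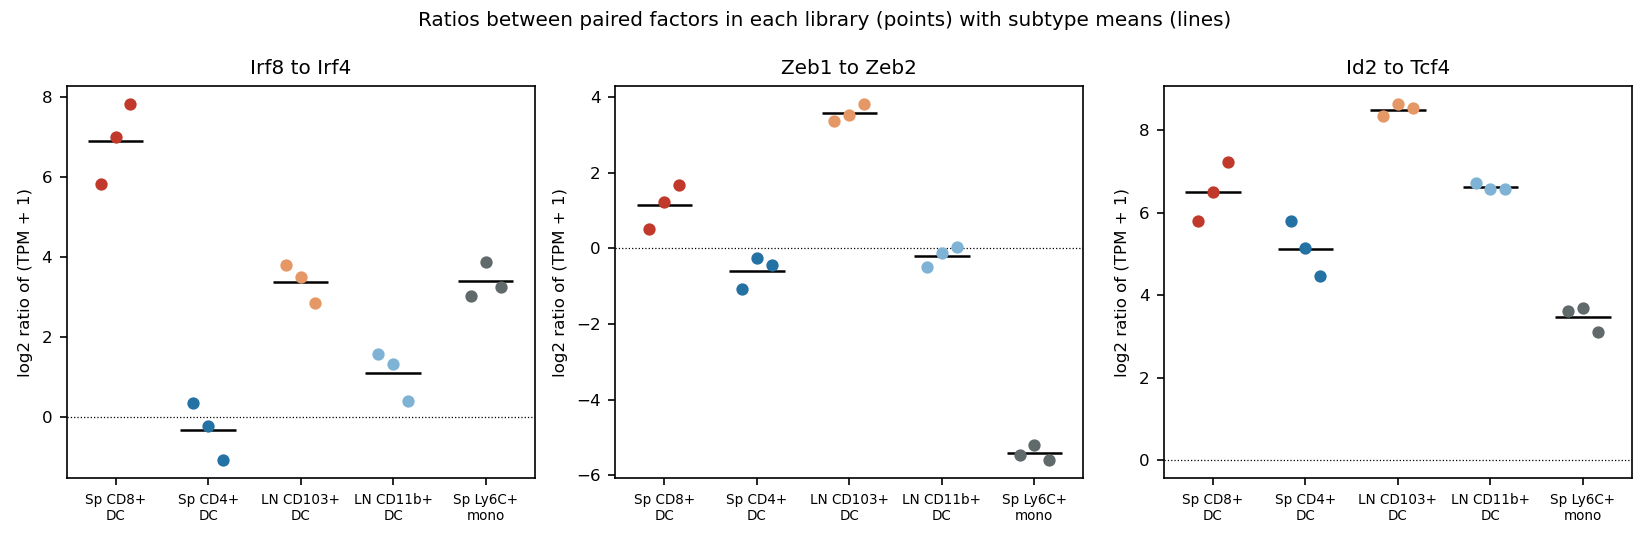
Log2 ratio of TPM + 1 between paired factors in each library (y axis), for the 5 subtypes (x axis); points are libraries, lines are means of 3 and the dotted line marks equal levels. The Irf8 to Irf4 and Zeb1 to Zeb2 ratios separate all DC1 from all DC2 libraries, and monocytes have the lowest Zeb1 to Zeb2 ratio (mean -5.42).

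Within splenic CD8+ DCs the libraries differed among themselves in several factors and in the summed markers of both lineages. Replicate 1 held the most Zeb2, Klf4, Irf4 and Tcf4 and replicate 3 the least, by 3.78-fold, 3.08-fold, 2.95-fold and 2.46-fold. Irf8 ran the other way, 1.58-fold higher in replicate 3 than in replicate 1, while the highest and lowest library differed 1.45-fold for Nfil3, 1.32-fold for Zeb1, 1.17-fold for Zbtb46, 1.15-fold for Id2 and 1.10-fold for Batf3. The 6 sorted DC2 markers summed to 256, 153 and 94.1 CPM in replicates 1, 2 and 3, and the 6 sorted DC1 markers to 1898, 2307 and 3028 CPM. In the DC2 list, Sirpa was at 118, 64.5 and 45.3 CPM and Cd4 at 18.2, 3.10 and 1.95 CPM. Clec4a4, Cd209a and Mgl2 fell in the same order, whereas Itgam was highest in replicate 2 (8.85, 12.95 and 3.32 CPM). In the DC1 list, Xcr1, Cadm1, Itgae and Tlr3 rose from replicate 1 to replicate 3. Clec9a fell instead (309, 283 and 271 CPM), and Cd8a was lowest in replicate 2 (352, 344 and 626 CPM). The 7 T cell markers summed to 20.2, 2.97 and 3.66 CPM. For comparison, splenic CD4+ libraries held 1803 to 2781 CPM of the DC2 markers. The part of other cells in these libraries was not tested, and with replicate 1 left out the splenic lineage difference was larger for Irf4 (-2.32, adjusted p = 0.000143) and for Zeb2 (-3.22, adjusted p = 1.42e-06), that of Nfil3 fell below the threshold (0.65, adjusted p = 0.127) and that of Tcf4 changed sign (-0.30, adjusted p = 0.396).

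**Figure D4:**
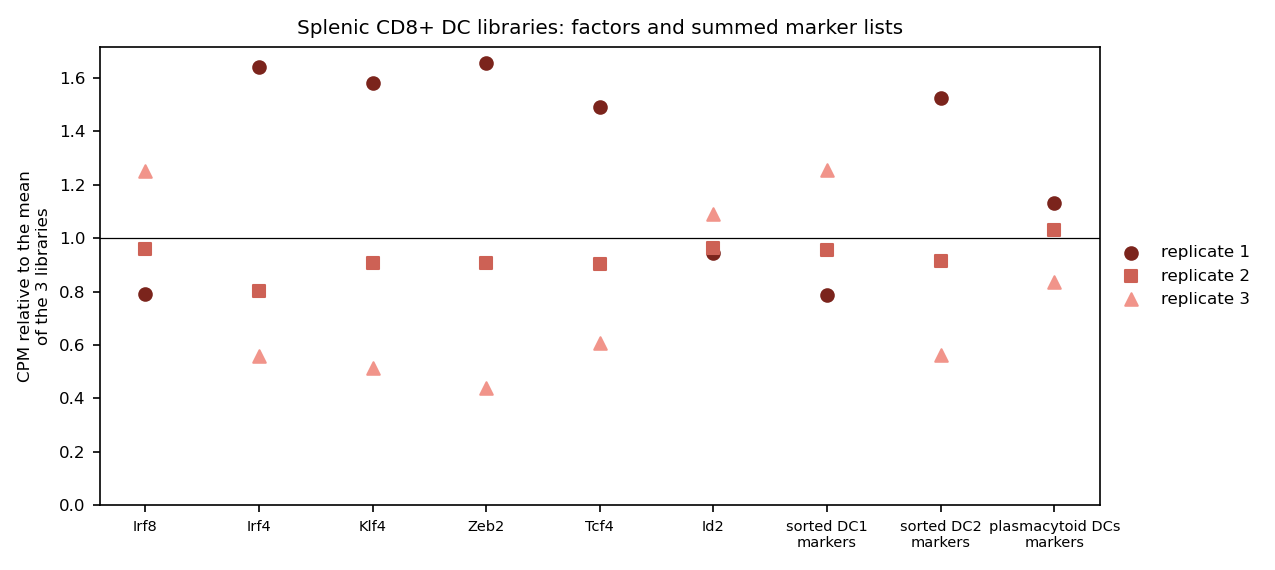
CPM of 6 factors and of summed marker lists in the 3 splenic CD8+ DC libraries, each divided by the mean of the 3 libraries (y axis); symbols are replicates. Irf4, Klf4, Zeb2 and Tcf4 are highest in replicate 1 together with the summed DC2 markers (256 CPM). Irf8 is highest in replicate 3 together with the summed DC1 markers (3028 CPM). Single markers of both lists depart from their sums, among them Clec9a, which was highest in replicate 1, and Itgam, which was highest in replicate 2.

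The partners and relatives of the 10 factors were followed in lists, whose counts are to be read against the shares of all genes tested that passed in the same comparison: 27.4% between lineages in spleen, 12.9% between lineages in LN, 45.6% between organs in DC1 and 33.1% between organs in DC2. Of 7 other IRF genes, 2 were higher and 1 lower in LN than in splenic DC1, and 1 was higher and 1 lower in DC2, shares near those of all genes. Irf1, which responds to interferon, rose in LN from 182 ± 65.7 to 1472 ± 160 CPM in DC1 and from 282 ± 37.5 to 729 ± 46.3 CPM in DC2 (adjusted p = 1.10e-08 and 0.000128). Among 5 BATF and JUN partners of IRF4 and IRF8, none passed the threshold between lineages in spleen, and in LN against spleen 3 rose and 1 fell in DC1 and 2 rose and 1 fell in DC2. Junb rose in LN in DC1 (1.67 ± 0.15) and DC2 (1.59 ± 0.15), and Batf fell in DC1 (-1.34 ± 0.26) and DC2 (-0.75 ± 0.23). Of the 4 other E proteins and ID inhibitors, 3 were higher in LN in each lineage, Tcf3 among them (84.8 ± 13.2 CPM in LN CD103+ and 36.7 ± 13.9 CPM in splenic CD8+ DCs), and none passed the threshold between lineages in either organ.

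Against the same shares of all genes, of 4 other factors of the DC1 path 1 was higher and 1 lower in DC1 than in DC2 in spleen and none passed the threshold in LN, and between organs 2 were higher and 1 lower in LN in each lineage. Mycl, a MYC family factor of DC1, was at 486 ± 33.4 CPM in splenic CD8+ and 100.3 ± 28.3 CPM in splenic CD4+ DCs. In LN, Mycl was at 29.6 ± 20.3 CPM in CD103+ and 24.2 ± 2.54 CPM in CD11b+ DCs. Etv3 was higher in LN than in spleen in both lineages. It was at 1790 ± 302 against 111 ± 32.0 CPM in DC1 and 1652 ± 338 against 205.6 ± 65.05 CPM in DC2. Of 8 other DC2 factors, 4 were lower in DC1 in spleen, led by Tbx21 (2.11 ± 1.33 against 77.7 ± 32.7 CPM) and Relb (162 ± 9.28 against 934 ± 323 CPM), and none passed the threshold between lineages in LN. Of 8 monocyte and macrophage factors, 5 were lower in DC1 in spleen and 4 in LN, and all 8 were higher in monocytes than in splenic CD8+ DCs, a comparison in which 42.1% of all genes passed. Macrophage markers summed to 466 to 809 CPM in the DC2 libraries and 165 to 239 CPM in the DC1 libraries. Vcam1, 1 marker of that list, averaged 321 ± 13.25 CPM in splenic CD4+ and 121.7 ± 22.4 CPM in splenic CD8+ DCs. Another, C1qb, averaged 205 ± 73.4 CPM in LN CD11b+ and 13.1 ± 1.90 CPM in LN CD103+ DCs. The part of macrophage RNA in these libraries was not tested. Of 11 early myeloid factors (10 tested), 6 were higher and 2 lower in monocytes than in splenic CD4+ DCs (48% of all genes passed), with Cebpb at 768 ± 29.2 against 4.37 ± 1.46 CPM, and Bcl11a fell from 190 ± 60.2 CPM in splenic CD8+ to 11.5 ± 7.10 CPM in LN CD103+ DCs. Of 4 plasmacytoid DC factors, 1 was higher in LN in each lineage, Spib, and of 5 other KLF genes 1 was lower in DC1 in spleen and 2 were lower in LN, with none higher.

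Genes known to depend on these factors were counted as well, some of which served in sorting. Of 7 genes under IRF8 and BATF3, all were higher in DC1 in spleen (27.4% of all genes passed in either direction), 4 in LN (12.9%), and all 7 were lower in LN CD103+ than in splenic CD8+ DCs (45.6%). Between organs in DC2, 2 of the 7 were higher and 3 lower in LN (33.1%). There Wdfy4 fell from 758 ± 166 to 87.4 ± 15.7 CPM, and Cd8a rose from 2.03 ± 1.04 to 12.7 ± 1.04 CPM. Cd8a and Itgae were sorted on. Xcr1, a chemokine receptor of DC1, was at 716 ± 202 CPM in splenic CD8+ and 55.2 ± 36.1 CPM in LN CD103+ DCs, and Clec9a at 288 ± 19.9 and 34.5 ± 4.72 CPM. Of 6 genes that need IRF4 or KLF4 in DC2 or in migration, 5 were lower in DC1 in spleen, and in LN 3 were lower and 1 higher, against 27.4% and 12.9% of all genes. Ccr7, which guides DCs to LNs, rose from 91.0 ± 31.3 CPM in splenic CD8+ to 4028 ± 424 CPM in LN CD103+ DCs, and Cd209a fell from 70.2 ± 29.2 to 0.740 ± 0.941 CPM. Of 5 epithelial genes repressed by ZEB factors in other cells, 3 were tested. Between lineages 1 was higher and 1 lower in DC1 in spleen (27.4% of all genes passed), and 2 were higher in DC1 in LN (12.9%). Cldn1, which encodes claudin-1, was at 66.8 ± 8.65 CPM in LN CD103+ against 14.9 ± 5.82 CPM in LN CD11b+ DCs (adjusted p = 0.00286). It was lower in spleen in both lineages, at 7.17 ± 2.22 CPM in CD8+ and 1.40 ± 1.30 CPM in CD4+ DCs.

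The genes with the most similar pattern were those with the highest Pearson r of log2 CPM over the 15 libraries, among 10245 genes with at least 10 CPM in their highest subtype. They were Ifi205 (r = 0.97) and Acvrl1 (0.97) for Irf8, Cd24a (0.97) and Fmnl2 (0.96) for Batf3, and Fmnl2 (0.98) and Gm15512 (0.98) for Id2. Zeb2 was most like Adgre4 (0.97) and Pla2g7 (0.97), Zeb1 like Ttc39b (0.99) and Galnt12 (0.98), and Zbtb46 like Tubb5 (0.99) and Adam23 (0.99). Nfil3 and Klf4, both highest in monocytes, were closest to Adam15 (0.98) and Hopx (0.98), and to Oas2 (0.95) and Wfdc17 (0.94). Irf4 (Kmt2e, 0.91; Il27ra, 0.90) and Tcf4 (Abhd15, 0.87; Irf2bp2, 0.86) had the lowest values of the 10. Among the factors themselves, the highest r was between Zeb1 and Zbtb46 (0.95) and the lowest between Nfil3 and Zbtb46 (-0.91). The points share subtypes, so these values describe shared differences between subtypes.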

How the data were processed

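RNA was measured in 15 murine libraries, 3 for each of 5 sorted subtypes, assigned by sample title. The authors discarded short Ion Torrent reads, mapped the rest to mm10 with STAR 2.4.0j and counted unique reads per Ensembl gene with featureCounts (Subread 1.5.2), without strand and with a read counted for each gene that covered at least the minimum share of it the authors set; they deposited these counts without normalization, and TPM made from them and exon length. Symbols were matched for 37607 of 38924 identifiers.

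Genes above 1 CPM in at least 3 libraries (14456) were tested in R 4.3.3 with edgeR 4.0.16 (TMM, quasi-likelihood F test, 10 residual degrees of freedom), first tested on simulated data. Ratios used TPM + 1 and exact permutation tests (scipy 1.17.1). The 10 genes, the lists and the tests were chosen with earlier results of these data known. All 10 genes are named, from each list at most the 2 with the largest change in a comparison described, and 2 per gene by likeness; sort markers and markers of other cells fall outside this rule and were chosen after their values were seen.

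Same-numbered libraries deviated together (r over 0.1 in all 3 pairs) for splenic CD8+ with CD4+, LN CD103+ with CD11b+, and splenic CD4+ with both LN subtypes, but in no pairing with monocytes (30 pairs, r -0.04 to 0.38). The pairing comes from replicate numbers in the titles. Alternatives were RLE scaling, DESeq2 1.42.0, other filters, limma 3.58.1 on log2 TPM, a fit of the compared subtypes alone, a replicate block, a fold threshold and leaving out each library.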

Additional observations from a re-analysis of the deposited data

Results flagged for a closer look

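In 4 of the 10 factors the organ effect differed between lineages by the test of the interaction (LN minus spleen in DC1, less the same in DC2, on the log2 scale). Irf8 had an interaction of -4.22, Batf3 of -0.94, Zeb2 of -1.51 and Tcf4 of -1.19, with edgeR adjusted p of 1.15e-06, 0.0225, 0.0418 and 0.0430. For Irf8 the interaction stayed between -4.48 and -3.91 with any 1 library left out, whereas those of Zeb2 and Tcf4 each held in only 3 of 15 such fits. Groups of 3 libraries are too small for a test of outlying samples.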

How the results depend on the processing

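Of the 90 values of the 10 genes over 9 comparisons, 62 passed the threshold, and 45 of those did so under every alternative. Over all alternatives, 2069 values kept direction and side of the threshold, 82 lost the call, 19 gained it and 20 uncalled values changed sign; the cause of these changes was not tested. With limma on log2 TPM at either pseudocount, 3 genes differed between lineages in LN and 2 had an interaction. In a fit of the compared subtypes alone 5 differed between lineages in spleen (8 with a replicate block) and 2 had an interaction. With 1 library left out, the counts ran from 5 to 8 in spleen, 2 to 6 in LN and 1 to 4 for the interaction. The Id2 to Tcf4 ratio then ran from 1.47 to 2.02 between organs and from 1.35 to 1.97 between lineages. With a replicate block, 6 genes differed between lineages in LN and 5 between organs in DC2; the pairing changed no call beside those of Irf4 and Zeb1 given above. With no filter on low counts, Irf4 passed between lineages in LN (adjusted p = 0.00455) and between organs in DC2 (0.0307), and Zeb1 between organs in DC2 (0.0183) and for the interaction (0.0185).

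The sign changes fell on small values. For Tcf4 between lineages in spleen limma gave -0.0232 and -0.0295 at pseudocounts of 1 and 0.1, and leaving out a library gave -0.299 to 0.368. For Tcf4 in monocytes against splenic CD8+ DCs the values were 0.125 and 0.136, and -0.318 to 0.349. Against splenic CD4+ DCs Tcf4 was at -0.00521 in the fit of these subtypes alone and at -0.0318 to 0.135 with a library left out, and against LN CD11b+ DCs at -0.0336 to 0.235. With a library left out, Tcf4 ran from -0.185 to 0.0841 and Klf4 from -0.00499 to 0.620 between organs in DC2, Zeb1 from -0.0440 to 0.281 between lineages in LN, and the interaction of Klf4 from -0.264 to 0.553. Depth limits Zeb1 in monocytes most, with 22 to 30 counts per library.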
